A study of Mus musculus with 8 samples.

Results

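The genes described here are 32 genes of cholesterol synthesis, uptake and export: 19 enzymes from acetyl-CoA to cholesterol and its side branch, 4 genes of the SREBP-2 control system, 6 genes of uptake, transfer and esterification, and 3 exporters. They were chosen by function, and each is read from 1 probe, the brightest on average of those whose accession belongs to it. All 32 had a probe, out of 20284 genes with a named probe on the array. Testing required a probe to be well above background on the 2 arrays of some group, which held for 31 of the 32 and for 14560 genes in all. Of the 31, 29 were well above background on all 8 arrays. Soat1 and Abcg8 passed through the groups where they were bright, and Npc1l1 was not well above background on any array and was not tested.

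RNA came from livers of C57BL/6J mice that lacked Btg2 (called TIS21 in the labels; KO) and from wild-type mice (WT), at 2 stages. The KO adult and WT adult livers were from males of 10 weeks, and both genotypes had been fasted for 20 h. The KO fetal and WT fetal samples were pools of livers from embryos of day 13.5, more than 3 per pool and of both sexes. The labels used here do not say how many adults gave each adult sample. Each of the 4 RNA samples was hybridised to 2 single-colour arrays, which the design text calls technical duplicates. All p-values below therefore measure array error between 4 RNA samples, and animals were not replicated. Because whole liver was sampled, fewer cells of a type and less RNA per cell cannot be told apart.

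Cholesterol is built from acetyl-CoA through mevalonate, the isoprenoid farnesyl diphosphate, squalene and lanosterol. When membranes of the endoplasmic reticulum are poor in sterol, SCAP carries the transcription factor SREBP-2 to the Golgi, where it is cleaved, and its released part switches on nearly all of these enzymes; INSIG proteins hold SCAP back when sterol is plentiful. The liver also takes sterol up from lipoproteins, stores it as esters, and exports it to HDL and bile, and transcription of the exporters is driven by the sterol sensor LXR.

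Signals are given as scaled signals, the processed signal divided by the 75th percentile of its array. They compare 1 gene between arrays, not genes with each other. Differences are on the log2 scale ± limma's standard error (SE), with 2 arrays in each group. A call needed a Benjamini-Hochberg adjusted p under 0.05 over all genes tested and a difference of at least 2-fold. The 75th percentile itself was 170 and 171 on the KO adult arrays, 132 and 133 on the WT adult arrays, 278 and 279 on the KO fetal arrays and 325 and 334 on the WT fetal arrays. Over genes, the 2 arrays of a group had a correlation between 0.992 and 0.997.

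The labels were checked first with Btg2. Its scaled signal was 0.0366 and 0.0473 on the KO adult arrays, neither well above background, against 1.12 and 1.20 on the WT adult arrays. It was 0.0164 and 0.0185 on the KO fetal arrays, again not well above background, against 6.22 and 6.42 on the WT fetal arrays. Set against the lowest measurable signal, Btg2 was at least 7.63-fold lower in KO adult liver and at least 98.0-fold lower in KO fetal liver. Of 7 hepatocyte markers, all were well above background on the adult arrays, while the fetal arrays had Cyp1a2 dim on all 4 and Cps1 dim on 3.

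The promoters of 6 enzymes are shown so that the CCAAT box and the sterol regulatory element core can be looked for in them. Idi1, Lss, Cyp51, Msmo1 and Nsdhl are the enzymes called in adult liver below that had a promoter window. Hmgcs1 was not called there, stood just under 2-fold, and is the only gene with the core. Mvd and Dhcr7, which like Hmgcs1 were called in the interaction below, had windows without the core and are not printed. Each line gives the 150 bases before the annotated start in the gene's direction, from RefSeq on GRCm38.p6, where 26 of the 32 genes had a promoter window. Capitals mark the sterol regulatory element core TCACNCCAC, to which SREBP binds, and the CCAAT box, to which its partner NF-Y binds, each on either strand. The 2 motifs do not overlap in these windows.
Hmgcs1: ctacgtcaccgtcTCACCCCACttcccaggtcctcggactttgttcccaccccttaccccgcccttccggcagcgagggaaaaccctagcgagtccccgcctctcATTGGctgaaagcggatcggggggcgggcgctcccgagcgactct
Idi1: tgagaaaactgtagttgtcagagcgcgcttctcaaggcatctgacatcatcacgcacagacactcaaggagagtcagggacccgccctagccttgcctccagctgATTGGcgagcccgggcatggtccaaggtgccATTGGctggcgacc
Lss: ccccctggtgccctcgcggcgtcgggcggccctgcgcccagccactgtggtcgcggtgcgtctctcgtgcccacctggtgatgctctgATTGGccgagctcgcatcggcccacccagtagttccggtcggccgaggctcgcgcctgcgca
Cyp51: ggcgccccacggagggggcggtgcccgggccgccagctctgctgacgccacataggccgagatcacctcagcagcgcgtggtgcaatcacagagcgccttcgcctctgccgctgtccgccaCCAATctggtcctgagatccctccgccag
Msmo1: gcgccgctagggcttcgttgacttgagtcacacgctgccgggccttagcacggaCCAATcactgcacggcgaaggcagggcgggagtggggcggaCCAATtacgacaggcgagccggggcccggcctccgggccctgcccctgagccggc
Nsdhl: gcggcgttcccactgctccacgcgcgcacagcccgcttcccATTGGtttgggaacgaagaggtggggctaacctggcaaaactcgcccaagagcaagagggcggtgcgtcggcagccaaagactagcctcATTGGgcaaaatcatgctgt
The windows lie at chr13:119690201-119690350 on the plus strand (Hmgcs1), chr13:8885456-8885605 on the plus strand (Idi1), chr10:76531455-76531604 on the plus strand (Lss), chr5:4104698-4104847 on the minus strand (Cyp51), chr8:64733579-64733728 on the minus strand (Msmo1) and chrX:72918371-72918520 on the plus strand (Nsdhl). A CCAAT box stood in each of these 6. Over the full windows, from 250 bases before to 50 after the start, it was present in 23 of the 26 genes (88.5%), against 41.1% of 27025 genes with a window. Acat2, Scap and Abca1 had none, while genes outside synthesis such as Soat1, Npc1l1, Abcg5 and Abcg8 had one. The core TCACNCCAC was present in 1 of the 26, Hmgcs1, where it begins 137 bases before the start, and in 1.44% of all genes with a window. Only these exact letters were searched, so variant SREBP sites were not counted, and a gene without a match may still hold one. Fdps, Fdft1 and Sqle were among the 6 genes without a window.

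In fasted adult liver, enzymes of cholesterol synthesis were higher in KO than in WT, while none of the other 12 genes tested was called on its representing probe. Of the 31 genes tested, 7 were called higher and 0 lower by limma, and 26 had an unadjusted p under 0.05, as had 59.9% of all genes tested. Over all genes tested, 4.96% were called higher and 2.53% lower. The 7 were all enzymes, so that 7 of 19 synthesis genes rose (36.8%), and 0 of the 12 other genes tested. The median log2 difference was 0.92 over the 19 synthesis genes and 0.14 over the other 12, against -0.10 over all genes tested. By adjusted p alone, without the 2-fold limit, 16 synthesis genes (84.2%) were higher and 2 lower, where 22.8% of all genes were higher and 32.8% lower.

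**Figure D1:**
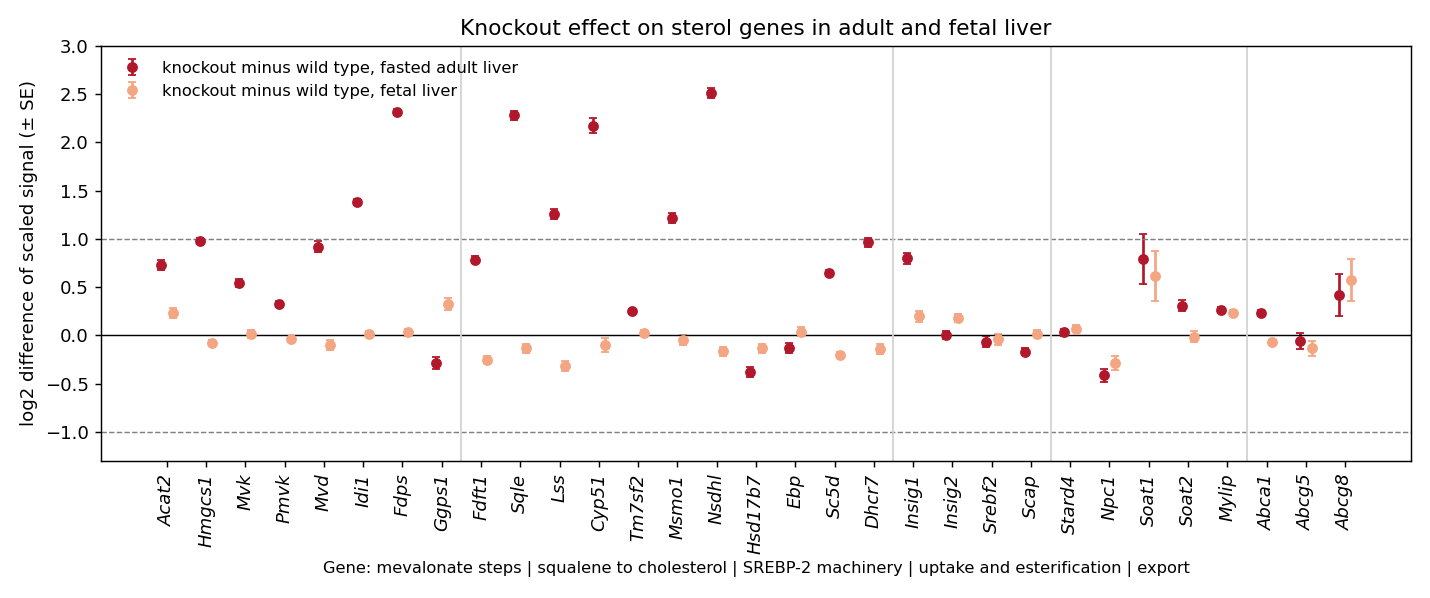
Log2 difference between KO and WT liver for the 31 genes tested, in pathway order, in fasted adult and in fetal liver; bars are limma's SE from 2 arrays per group, and dashed lines mark 2-fold. In adult liver 7 enzymes lie past the upper line, up to 2.51 for Nsdhl, while in fetal liver no gene passes either line. The fitted values of Abcg8 in fetal liver and of Soat1 in adult liver rest wholly or partly on arrays not well above background.

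In the first stretch, from acetyl-CoA to the isoprenoids, Idi1 and Fdps rose. Fdps, farnesyl diphosphate synthase, which makes the precursor of squalene and of protein prenyl groups, had scaled signals of 50.6 and 52.4 in KO adult liver, against 10.2 and 10.5 in WT adult liver. The groups were far apart, with KO 4.98-fold higher (log2 difference 2.32 ± 0.03, limma adjusted p = 3.4e-08). Idi1, which isomerises isopentenyl diphosphate, had 18.8 and 18.4 in KO adult liver, against 7.32 and 6.96 in WT adult liver. This was 2.61-fold (1.38 ± 0.03, adjusted p = 1.7e-07).

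Hmgcs1, the cytosolic HMG-CoA synthase, stood just under the 2-fold limit. Its scaled signals were 41.9 and 44.0 in KO adult liver, against 22 and 21.7 in WT adult liver, a log2 difference of 0.97 ± 0.03 (1.97-fold, adjusted p = 5.7e-07), and 6 alternatives put it past 2-fold. Mvd, which decarboxylates mevalonate diphosphate, had 1.34 and 1.37 in KO adult liver, against 0.736 and 0.697 in WT adult liver (0.92 ± 0.05). The log2 differences were 0.73 ± 0.05 for Acat2, the cytosolic acetoacetyl-CoA thiolase, 0.54 ± 0.04 for mevalonate kinase (Mvk) and 0.33 ± 0.03 for phosphomevalonate kinase (Pmvk). Thus 7 of the 8 genes of this stretch had a positive difference. The exception was Ggps1, which makes the geranylgeranyl diphosphate of the side branch rather than a sterol precursor: 1.53 and 1.5 in KO adult liver, against 1.74 and 1.96 in WT adult liver (-0.29 ± 0.06, adjusted p = 0.0054). Before scaling, Ggps1 had 261 and 255 in KO adult liver, against 232 and 259 in WT adult liver. Among the alternatives its difference ran from -0.37 to -0.10, and its adjusted p was not always under 0.05.

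In the second stretch, from squalene to cholesterol, 5 of 11 genes rose. Nsdhl, a dehydrogenase that takes part in removing the methyl groups at carbon 4 of the sterol ring, had 3.37 and 3.44 in KO adult liver, against 0.614 and 0.579 in WT adult liver. Its difference was 5.70-fold (2.51 ± 0.05, adjusted p = 8.6e-08), and 1.86 on the log2 scale with normexp background correction. Its second probe had 0.456 and 0.438 in KO adult liver, against 0.102 and 0.134 in WT adult liver, where it was not well above background, and gave 1.93 ± 0.18. The mean of both probes gave 2.22, so the order of Nsdhl, Fdps and Sqle depends on the probe and the setting.

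Sqle, squalene epoxidase, a rate-limiting step of the pathway, had 4.51 and 4.15 in KO adult liver, against 0.924 and 0.861 in WT adult liver (2.28 ± 0.05, 4.86-fold, adjusted p = 1.2e-07). Cyp51, the lanosterol 14-demethylase, had 1.28 and 1.31 in KO adult liver, against 0.269 and 0.307 in WT adult liver (2.18 ± 0.08, 4.52-fold, adjusted p = 9.7e-07). Sqle and Cyp51 thus stood with Fdps and Nsdhl above 4-fold in the main setting. Lss, lanosterol synthase, which closes the sterol rings, had 1.64 on both KO adult arrays, against 0.658 and 0.715 on the WT adult arrays (1.26 ± 0.05, adjusted p = 1.8e-06). Msmo1, the methyl sterol monooxygenase that acts before Nsdhl, had 32.4 and 36.5 in KO adult liver, against 14.8 on both WT adult arrays (1.22 ± 0.05, adjusted p = 2.2e-06). For all 5 genes both KO adult arrays lay above both WT adult arrays, as they did for 22 of the 31 genes and for 30.9% of all genes tested. With normexp background correction in place of the vendor's processing, the difference of Lss was 0.87, under 2-fold, and that of Cyp51 was 1.27.

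The other 6 genes of this stretch stayed under 2-fold. Dhcr7, the 7-dehydrocholesterol reductase of the last step, had 1.59 and 1.61 in KO adult liver, against 0.824 and 0.816 in WT adult liver (0.96 ± 0.05, 1.95-fold, adjusted p = 4.2e-06). Fdft1, squalene synthase, had 8.49 and 8.68 in KO adult liver, against 5.16 and 4.79 in WT adult liver (0.79 ± 0.04). Sc5d, the lathosterol desaturase, had 54.9 and 52.4 in KO adult liver, against 34.7 and 34.0 in WT adult liver (0.64 ± 0.03). These 3 thus lay between 1.56-fold and 1.95-fold. Tm7sf2, a sterol 14-reductase, differed by 0.25 ± 0.03, and by 0.74 ± 0.03 on its second probe. Hsd17b7, the keto reductase that follows Nsdhl, and Ebp, the sterol isomerase, had negative differences of -0.38 ± 0.05 (adjusted p = 4.4e-04) and -0.13 ± 0.05 (adjusted p = 0.060), and that of Ebp changed sign among the alternatives (-0.22 to 0.13). Nsdhl thus rose, while Hsd17b7, the next enzyme, had 3.58 and 3.56 in KO adult liver, against 4.59 and 4.69 in WT adult liver. Its second probe gave -0.39 ± 0.07. Before scaling, Hsd17b7 had 612 and 604 in KO adult liver, against 612 and 620 in WT adult liver, so its small fall depends on the scaling. Among the alternatives its difference ran from -0.39 to -0.19, and its adjusted p was not always under 0.05.

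**Figure D2:**
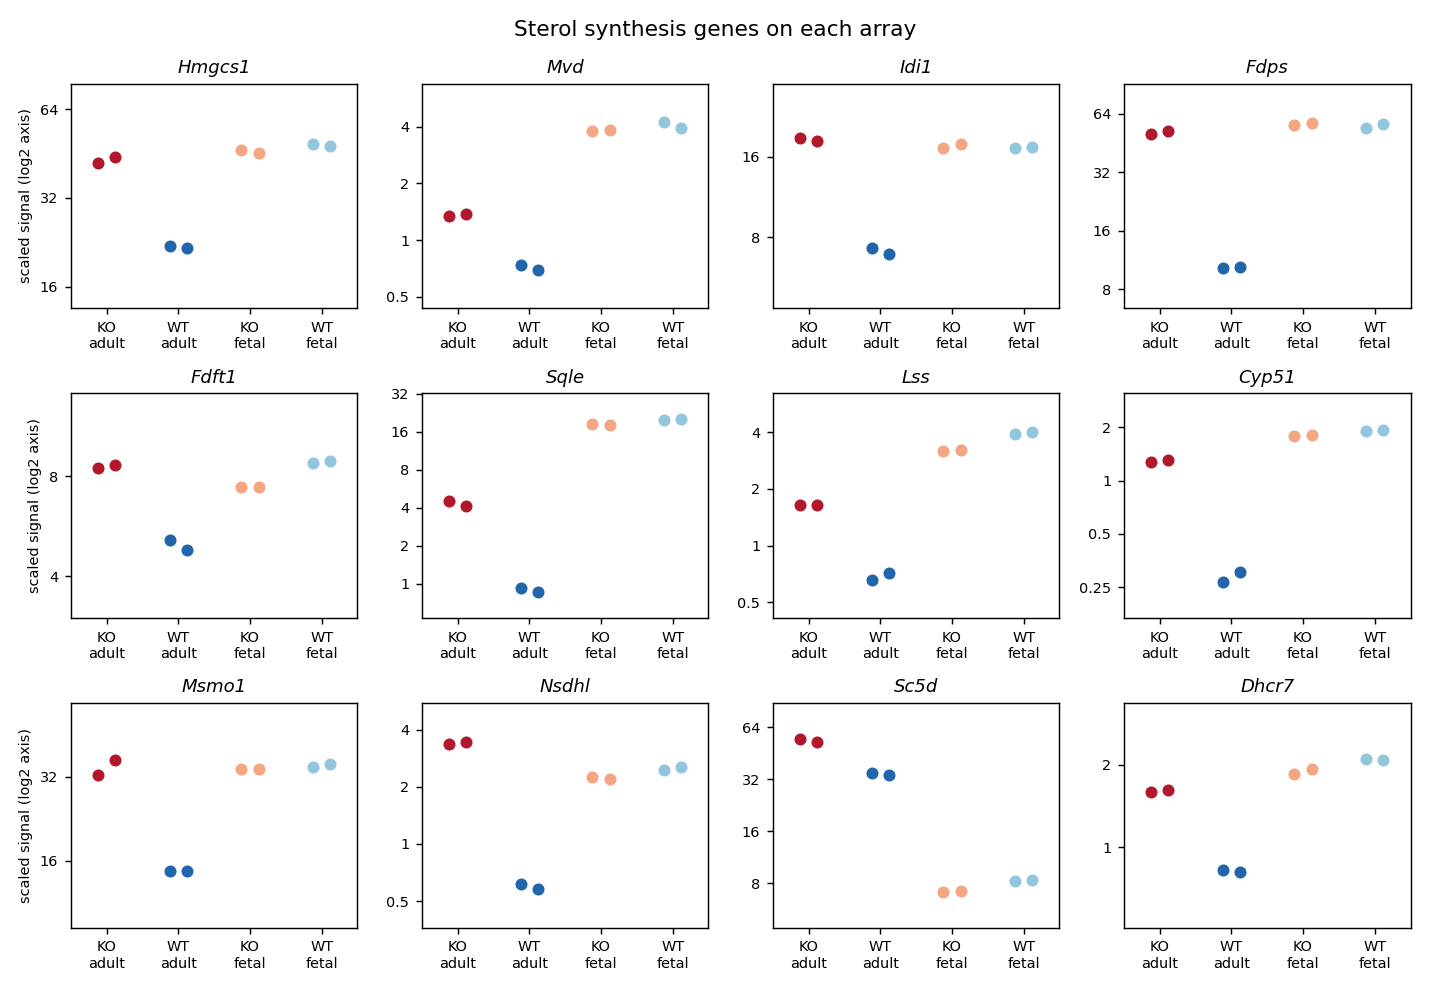
Scaled signal (multiples of the array's 75th percentile, log axis) of part of the synthesis genes on each of the 8 arrays, with 1 point per array. Groups from left to right are KO adult, WT adult, KO fetal and WT fetal. The genes drawn are Hmgcs1, Mvd, Idi1, Fdps, Fdft1, Sqle, Lss, Cyp51, Msmo1, Nsdhl, Sc5d and Dhcr7. Not drawn are Acat2, Mvk, Pmvk, Tm7sf2, and the genes with a negative adult difference, Ggps1, Hsd17b7 and Ebp. For Sqle the WT adult arrays (0.924 and 0.861) lie lowest, the KO adult arrays (4.51 and 4.15) between, and the 4 fetal arrays (18 to 20.1) highest.

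None of the 4 genes of the SREBP-2 control system was called in adult liver. Insig1, itself a target of SREBP-2 and a brake on it, had 3.84 and 3.86 in KO adult liver, against 2.19 and 2.24 in WT adult liver (0.80 ± 0.06, 1.74-fold, adjusted p = 2.0e-05). Insig2, the form whose liver transcript is known to be raised by fasting, had 74.6 and 74.2 in KO adult liver, against 75.5 and 72.5 in WT adult liver, so that the groups overlapped (0.01 ± 0.04, adjusted p = 0.89). On its second probe they did not overlap, with 21.1 on both KO adult arrays, against 25.2 and 24.2 on the WT adult arrays (-0.23 ± 0.06). Scap had 39.2 and 41.1 in KO adult liver, against 44.1 and 46.2 in WT adult liver (-0.17 ± 0.04, adjusted p = 0.0071), and among the alternatives its difference ran from -0.20 to 0.02.

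Srebf2, which encodes SREBP-2, had 1.04 and 0.996 in KO adult liver, against 1.04 and 1.10 in WT adult liver (-0.07 ± 0.06, adjusted p = 0.35). Its second probe had 0.556 and 0.428 in KO adult liver, against 0.0591 and 0.260 in WT adult liver, with only the higher WT array well above background (1.98 ± 0.59). The probes of this gene therefore disagree, and the WT arrays of the second one lie further from each other than the higher of them does from KO.

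None of the 5 genes tested for uptake, transfer and esterification was called. Npc1, which moves cholesterol out of lysosomes, had 5.15 and 4.94 in KO adult liver, against 7.17 and 6.29 in WT adult liver (-0.41 ± 0.07, adjusted p = 0.0020). Before scaling, Npc1 had 880 and 837 in KO adult liver, against 956 and 832 in WT adult liver, so that the groups overlapped. Among the alternatives its difference ran from -0.51 to -0.22, and its adjusted p was not always under 0.05. Mylip, the ubiquitin ligase that lowers lipoprotein receptors, had 4.09 and 4.07 in KO adult liver, against 3.38 and 3.39 in WT adult liver (0.27 ± 0.03). Soat2, the esterifying enzyme of hepatocytes, had 14.2 and 15.7 in KO adult liver, against 12.1 and 12 in WT adult liver (0.31 ± 0.05). These 3 differences were between 1.21-fold and 1.33-fold in size. Soat1, the esterifying enzyme of macrophages and most other cells, had 0.158 and 0.260 in KO adult liver, against 0.134 and 0.102 in WT adult liver, with 1 of these 4 arrays, in KO, well above background. Its difference was at least 1.13-fold (limma adjusted p = 0.034), a bound that rests on that 1 array, and of the 31 genes it had the widest gap between duplicates in both adult groups. Soat1 passed the filter through the fetal groups, and among the alternatives its log2 difference ran from 0.03 to 1.17 with adjusted p up to 0.78, past 2-fold in 3 of them and 0.44 without KO adult array 2 (adjusted p = 0.16).

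Stard4, a soluble sterol carrier, had 4.51 and 4.37 in KO adult liver, against 4.43 and 4.24 in WT adult liver (0.03 ± 0.04, adjusted p = 0.44). Its second probe had 0.382 and 0.355 in KO adult liver, against 0.198 and 0.163 in WT adult liver, with only the higher WT array well above background (1.04 ± 0.13). Which probe reports the main Stard4 transcript was not tested. Npc1l1, the sterol importer of the gut, had signals between 0.0213 and 0.199 on all 8 arrays, at or under background.

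Of the 3 exporters, none was called in adult liver. Abcg5, which with Abcg8 forms the transporter that sends sterol into bile, had 39.7 and 38.7 in KO adult liver, against 41.5 and 40.0 in WT adult liver (-0.06 ± 0.08, adjusted p = 0.57). Abcg8 had 1.08 and 1.03 in KO adult liver, against 0.715 and 0.872 in WT adult liver (0.42 ± 0.22, adjusted p = 0.15). Abca1, which loads cholesterol onto nascent HDL, had 9.63 and 9.64 in KO adult liver, against 8.23 and 8.11 in WT adult liver (0.24 ± 0.03, 1.18-fold, adjusted p = 3.8e-04).

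**Figure D3:**
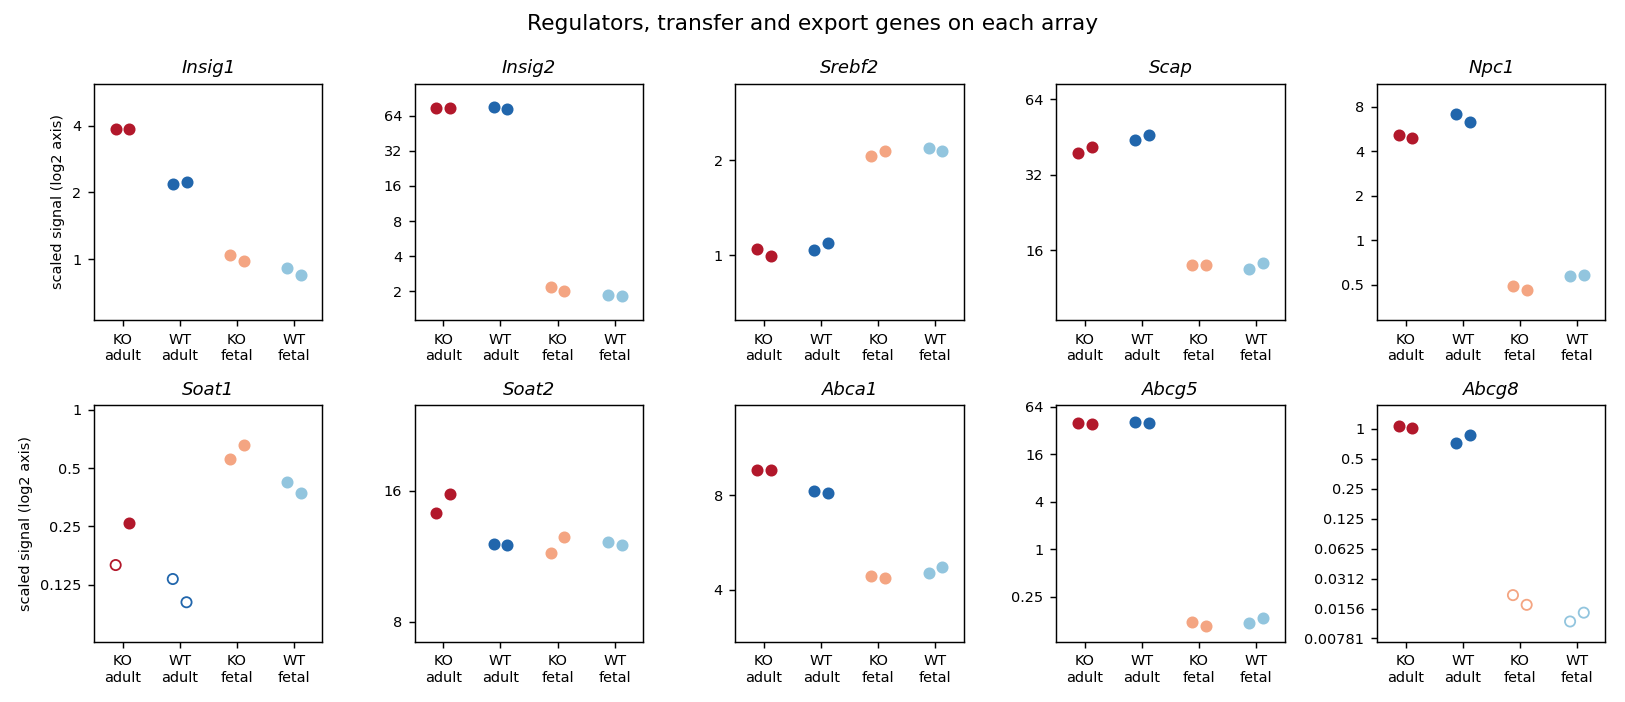
Scaled signal (log axis) on each of the 8 arrays, in the order KO adult, WT adult, KO fetal and WT fetal. The genes drawn are Insig1, Insig2, Srebf2, Scap, Npc1, Soat1, Soat2, Abca1, Abcg5 and Abcg8, while Stard4, Mylip and Npc1l1 are not drawn. Open circles were not well above background. The adult KO and WT points lie close together for Abcg5 and Insig2, and both genes drop in all 4 fetal arrays.

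Other genes of the same biology moved in small numbers. Of 14 tested genes that supply acetyl-CoA or use isoprenoids, 1 rose in KO adult liver: Aacs, which turns acetoacetate into a sterol precursor in the cytosol (1.24 ± 0.03, adjusted p = 2.0e-07). Of 9 genes of SREBP processing and sterol sensing, 1 rose. This was Srebf1, which encodes SREBP-1, the factor of fatty acid synthesis, with 3.52 and 3.63 in KO adult liver, against 0.665 and 0.693 in WT adult liver (2.40 ± 0.07, 5.26-fold, adjusted p = 4.4e-07). Which of the Srebf1 transcripts the probe reports was not tested. Of 14 genes of lipoprotein uptake and sterol traffic, 1 fell: Vldlr, a receptor for triglyceride-rich lipoproteins (-1.62 ± 0.06). Of 9 genes of LXR and HDL, 1 rose: Abcg1, an exporter to HDL with high expression in macrophages (1.09 ± 0.07). Each count is a single gene, 7.14% higher, 11.1% higher, 7.14% lower and 11.1% higher in the order of the lists, against 4.96% higher and 2.53% lower over all genes. In fetal liver limma called 0 genes of these 4 lists, with 4, 4, 5 and 5 genes at an unadjusted p under 0.05, as had 35.4% of all genes tested.

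Markers of other cells moved in the same adult comparison. All 11 measured macrophage and Kupffer cell markers were called higher in KO adult liver, and their summed scaled signal was 363 to 371 on the KO adult arrays, against 62.5 to 65.7 on the WT adult arrays; Timd4 was not well above background in WT adult. The hepatocyte markers summed to 3734 to 3744 in KO adult liver, against 4240 to 4345 in WT adult liver. Such a sum is weighted to its brightest probes. Of these 7 genes, 5 had a negative difference, while Cps1 (0.49 ± 0.16) and Cyp1a2 (1.18 ± 0.11) had a positive one. Of the 7, only Cyp1a2 was called, and it was higher. Of 8 intestinal epithelial markers, 5 were well above background in KO adult liver and 2 in WT adult liver, with Cdx1, Cdx2 and Cdh17 dim in both, and the sum was 96.1 to 96.7 in KO adult, against 248 to 250 in WT adult. That fall came from Fabp2 (-1.39 ± 0.03) and Lgals4 (-1.27 ± 0.04), both called lower. Krt20, Vil1 and Sis, dim on both WT adult arrays, were called higher on fitted values, by at least 2.76-fold, 1.06-fold and 1.59-fold. The bounds of Vil1 and Sis thus lie under the 2-fold limit. Sis was dim on all 4 fetal arrays as well and passed the filter only through KO adult liver, so its call is tied to the filter. Over all genes tested, 4.96% were called higher and 2.53% lower. The 7 erythroid markers summed to 541 to 545 in KO adult liver, against 453 to 454 in WT adult liver. Of these, 6 had a positive difference and Klf1 a negative one (-0.77 ± 0.24), and none was called. Of 5 steroidogenic markers, Star, Cyp11a1 and Cyp11b1 were dim on all 4 adult arrays. The part of these cells in the sterol gene differences was not tested.

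In fetal liver, 0 of the 31 genes were called higher or lower by limma, where 0.515% of all genes tested were called higher and 1.44% lower; 17 of the 31 had an unadjusted p under 0.05, as had 35.4% of all genes. The 17 include Abcg8 (0.57 ± 0.22), which was not well above background on any fetal array, so its fetal difference cannot be read. The median log2 difference was -0.03, against 0.02 over all genes tested, and the values ran from -0.32 for Lss to 0.62 for Soat1. By adjusted p alone, 5 were higher and 4 lower, where 13.9% and 8.61% of all genes were. The 7 enzymes called in adult liver lay between -0.32 and 0.03 here. Fdps had 55.9 and 57.3 in KO fetal liver, against 53.9 and 56.8 in WT fetal liver (0.03 ± 0.03). Nsdhl had 2.24 and 2.20 in KO fetal liver, against 2.45 and 2.53 in WT fetal liver (-0.17 ± 0.05, adjusted p = 0.052), and Lss had 3.19 and 3.22 in KO fetal liver, against 3.95 and 4.03 in WT fetal liver (-0.32 ± 0.05, adjusted p = 0.0063). The fetal macrophage markers summed to 120 to 121 in KO, against 96.8 on both WT arrays, and the erythroid markers to 2966 to 2986 in KO, against 2396 to 2638 in WT. None of these markers was called. Of the macrophage markers, 7 had a positive and 4 a negative difference, and all 7 erythroid markers had a positive one.

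**Figure D4:**
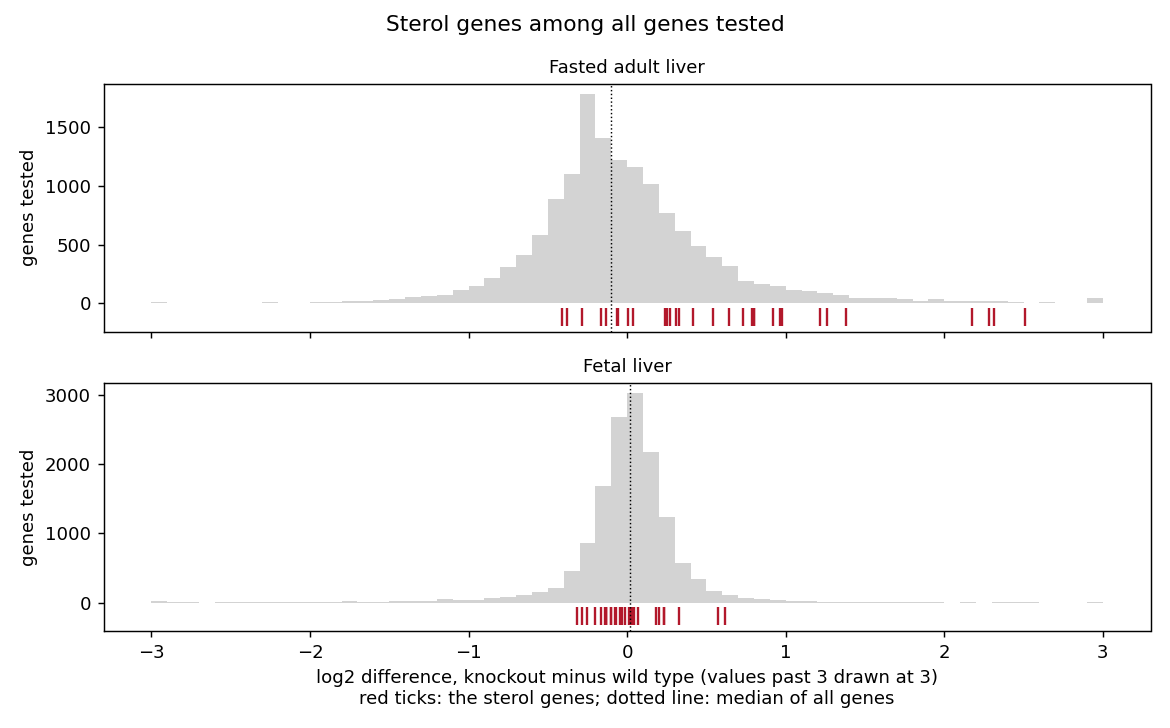
Log2 difference between KO and WT liver for all 14560 genes tested (grey, number of genes per bin; values past 3 are drawn at 3), with the 31 sterol genes as red ticks, in fasted adult and fetal liver. In adult liver the ticks run from -0.41 to 2.51 with a median of 0.54, against -0.10 for all genes (dotted line), and in fetal liver they run from -0.32 to 0.62.

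The difference between the adult and the fetal KO effect was tested as an interaction. It was called for 11 of the 31 genes, all with the larger value in adult liver, and for 0 in the other direction, where 6.05% of all genes were called higher and 3.68% lower. By adjusted p alone it was positive for 19 and negative for 4, where 20.9% and 31.1% of all genes were. All 11 were synthesis genes, 57.9% of the 19. The interaction passed 2 on the log2 scale for Nsdhl (2.68 ± 0.07), Sqle (2.41 ± 0.07), Fdps (2.28 ± 0.05) and Cyp51 (2.27 ± 0.11), with adjusted p between 5.0e-07 and 6.8e-06. With normexp correction these values were 2.05 for Nsdhl, 2.0 for Sqle, 2.36 for Fdps and 1.42 for Cyp51, so their order depends on the setting. It was 1.57 ± 0.07 for Lss, 1.36 ± 0.04 for Idi1 and 1.26 ± 0.07 for Msmo1. Hmgcs1 (1.05 ± 0.04), Dhcr7 (1.10 ± 0.07), Mvd (1.02 ± 0.07) and Fdft1 (1.04 ± 0.05) were called here without having reached 2-fold in the adult comparison. Of these 4, the call held under all alternatives for Hmgcs1 and was lost under 1 for Dhcr7, 1 for Fdft1 and 3 for Mvd. The interaction of Ggps1 was negative, -0.61 ± 0.09 (adjusted p = 8.4e-04), and that of Srebf2 was -0.03 ± 0.08 (adjusted p = 0.80). Among the alternatives that of Ggps1 ran from -0.70 to -0.44, and its adjusted p was not always under 0.05. The second probe of Srebf2 gave 1.90 ± 0.84.

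Between stages, genes of the set were called in both directions. These comparisons share their arrays with the genotype comparisons, and the 2 genotypes are given side by side. In KO liver, 12 of the 31 genes were called higher in adult than in fetal liver and 6 lower, where 25.8% and 27.8% of all genes were. By adjusted p alone these counts were 17 and 12, where 42.4% and 44.2% of all genes were. In WT liver 11 were called higher and 13 lower, where 27.3% and 27.9% of all genes were. Of the 19 synthesis genes, 4 were lower in KO adult than KO fetal liver, and 11 were lower in WT adult than WT fetal liver.

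Sqle showed the largest stage difference among the enzymes that fell, with 4.51 and 4.15 in KO adult liver, against 18.3 and 18 in KO fetal liver (-2.07 ± 0.05), and 0.924 and 0.861 in WT adult liver, against 19.8 and 20.1 in WT fetal liver (-4.48 ± 0.05, 22.3-fold lower). For Hmgcs1 the stage difference was -0.10 ± 0.03 in KO liver and -1.15 ± 0.03 in WT liver, and for Msmo1 it was 0.01 ± 0.05 in KO liver and -1.25 ± 0.05 in WT liver. Fdps was at -0.14 ± 0.03 in KO liver and -2.42 ± 0.03 in WT liver. For these 3 genes and for Idi1, the KO adult signal was 0.910 to 1.06 times the KO fetal signal in the main setting. This nearness depends on the scaling. Among the alternatives the KO stage differences reached -0.61 for Fdps, -0.57 for Hmgcs1, -0.46 for Msmo1 and -0.39 for Idi1. The median of all genes in this comparison was -0.04 in the main setting and -0.52 with median scaling. Mvk, Mvd, Sqle and Ggps1 were the 4 enzymes called lower in KO adult than KO fetal liver. The difference of the stage effects is the same interaction as above, since it uses the same 4 groups.

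Not every enzyme was lower in adult liver. Acat2, Tm7sf2, Hsd17b7, Ebp and Sc5d were called higher in adult than fetal liver in both genotypes. Ebp had 183 and 178 in KO adult liver, against 37.5 and 37.6 in KO fetal liver (2.26 ± 0.05), and 209 and 187 in WT adult liver, against 36.4 and 36.6 in WT fetal liver (2.44 ± 0.05). Acat2 was 40.5-fold higher in KO adult than KO fetal liver and 28.7-fold higher in WT adult than WT fetal liver. Acat2 has a close paralog, Acat3, whose own probe was 35.6-fold higher in KO adult than KO fetal liver and 15.3-fold higher in WT adult than WT fetal liver, and cross-hybridisation between them was not tested.

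**Figure D5:**
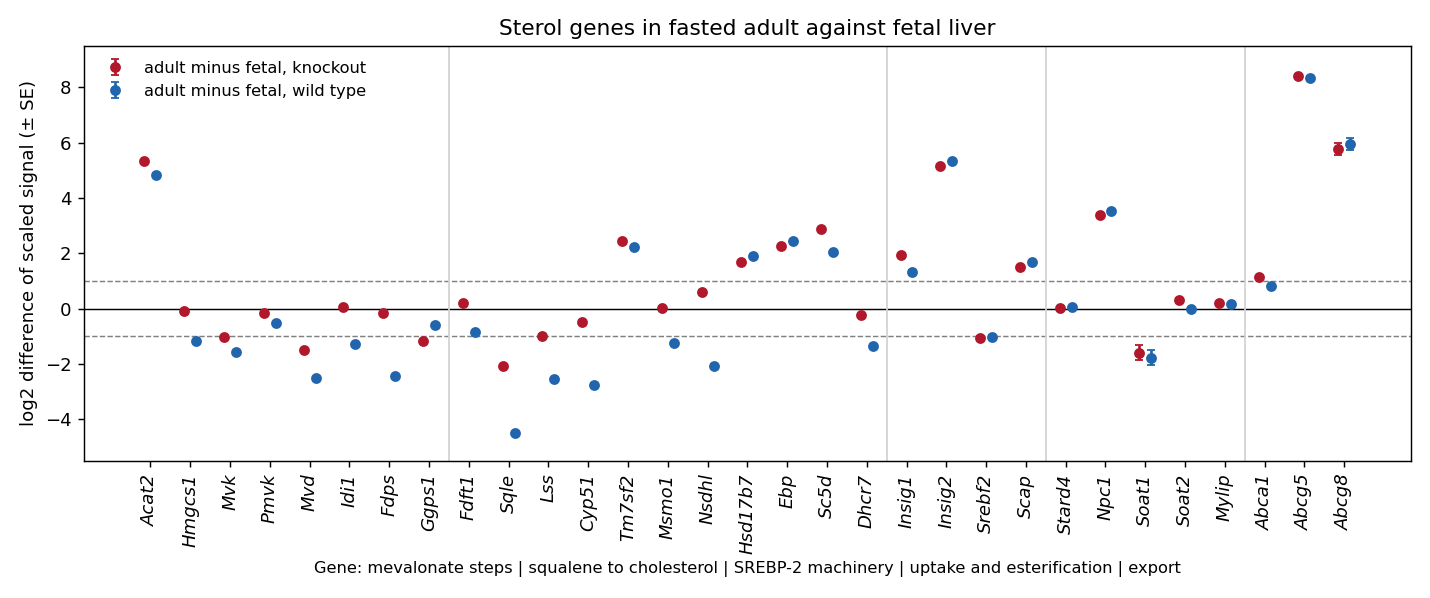
Log2 difference between adult and fetal liver for the 31 genes tested, in KO liver and in WT liver; bars are limma's SE, dashed lines mark 2-fold, and Soat1 and Abcg8 are fitted values that rest partly on arrays not well above background. Sqle lies at -2.07 in KO and -4.48 in WT liver, whereas Abcg5 lies at 8.42 in KO and 8.35 in WT liver.

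The exporters of the bile route were far lower in fetal than in adult liver. Abcg5, with the largest stage difference of the 31 genes, had 39.7 and 38.7 in KO adult liver, against 0.121 and 0.108 in KO fetal liver, a 343-fold difference (8.42 ± 0.08). In WT liver it had 41.5 and 40.0 in the adult, against 0.117 and 0.134 in the fetus, a 325-fold difference (8.35 ± 0.08). The fetal signals of Abcg5 were near the floor. Before scaling they were 29.9 to 43.5, where the lowest signal well above background was 13.9 to 18.3 on the fetal arrays. Among the alternatives the log2 difference ran from 6.66 to 8.50 in KO liver and from 6.70 to 8.45 in WT liver, so the fold sizes depend on the setting. Abcg8 was not well above background on any fetal array and was at least 16.3-fold higher in KO adult than KO fetal liver and at least 17.2-fold higher in WT adult than WT fetal liver. Abca1 had smaller differences, 1.13 ± 0.03 in KO liver and 0.82 ± 0.03 in WT liver.

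Abcg5 and Abcg8 stand head to head and share the short stretch between their starts, which is shown because both genes had the same stage direction. It is chr17:84683012-84683120 of GRCm38.p6, plus strand, and capitals mark the GATA box AGATAA on either strand, the motif of the GATA factors, known from the human genes to act on this pair.
Abcg5-Abcg8: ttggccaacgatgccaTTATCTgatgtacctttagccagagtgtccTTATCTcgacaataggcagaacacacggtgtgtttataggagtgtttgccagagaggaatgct
The motif was found in 3 of the 26 genes with a window (11.5%), Abcg5, Abcg8 and Insig2, a share near the 12.7% of all 27025 genes. Abcg5 and Abcg8 share the boxes shown, so they are not separate instances. A part of the motif in the stage differences was not tested.

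Insig2 was 35.8-fold higher in KO adult than KO fetal liver (5.16 ± 0.04) and 40.4-fold higher in WT adult than WT fetal liver (5.34 ± 0.04). Npc1 was 10.6-fold higher in KO adult than KO fetal liver and 11.6-fold higher in WT adult than WT fetal liver. Scap and Insig1 were also called higher in adult than fetal liver in both genotypes, between 2.51-fold and 3.81-fold, although Insig1 in WT liver was under 2-fold in 3 alternatives. Srebf2 ran the other way, with 1.04 and 0.996 in KO adult liver, against 2.06 and 2.14 in KO fetal liver (-1.05 ± 0.06), and a difference of -1.02 ± 0.06 in WT liver. The second probe of Srebf2 gave 0.33 ± 0.59 in KO liver and -1.57 ± 0.59 in WT liver, so the probes disagree in KO. The call of Srebf2 was lost in 2 alternatives in KO liver (-0.90 with normexp and -0.36 with its probes averaged) and in 2 in WT liver (-0.96 with normexp and -0.98 without WT adult array 1). Soat1 also fell, by 1.58 on the log2 scale in KO liver, where 1 of 2 adult arrays was well above background, and was at least 2.21-fold lower in WT adult than WT fetal liver. With normexp background correction Soat1 was not called in either genotype (-0.66 in KO and -0.24 in WT liver). Stard4, Soat2 and Mylip were not called in either genotype, with log2 differences from -0.0043 to 0.32 on their representing probes. The second probe of Stard4 gave -0.35 ± 0.13 in KO liver and -1.62 ± 0.13 in WT liver, so its probes disagree here as well. In WT liver, 1 of 2 adult arrays was well above background for that probe. Over the stages, the hepatocyte markers summed to 3734 to 4345 in adult liver, against 515 to 547 in fetal liver, and the erythroid markers to 453 to 545 in adult, against 2396 to 2986 in fetal liver, and their part in these differences was not tested.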

How the data were processed

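Per the file headers, the authors scanned all 8 arrays on 1 slide and processed them with Agilent Feature Extraction 10.7.3.1, and the deposited processed signal is a background-subtracted intensity on a linear scale. Per the labels' protocols, 200 ng of RNA per sample was labelled with Cy3. The groups lay in different columns of the slide, so slide column and group cannot be told apart. The deposited value table, also an intensity, had the same 75th percentile (185) on every array to 3 digits. How it was normalized is not stated in the labels used here, and it served as an alternative.

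Control spots and spots flagged as outliers (92 to 188 per array) were left out, and no spot was saturated. Each array had 39.6% to 62.4% of its spots well above background, and the number of arrays, 2 per group, limits the precision. Spots of 1 probe were averaged after log2, and the log2 value of the array's 75th percentile was subtracted. Probes were named through unversioned accessions in the RefSeq table of GRCm38.p6, and a gene was represented by its probe with the highest mean processed signal. The test was limma 3.58.1 under R 4.3.3, 1 linear fit of all 8 arrays in 4 groups with moderated variances that follow the intensity. The same fit was also run on simulated data built from the group means and spread of these arrays. A gene dim on both arrays of a group was set against the lowest signal well above background on those arrays, or its own if higher, and is given as "at least N-fold".

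The text names all 32 genes, Btg2, called genes of 4 further pathway lists (at most 3 per list), and markers of 5 cell types. Acat3 was named after its values were seen. The genes and lists were chosen with earlier results of these data known. Alternatives changed the scaling, the background (normexp with offset 50 on the median signal), the filter on dim probes, the probe rule, the trend, the arrays in the fit, the threshold, a block for array number, and left out each array. Same-numbered arrays did not deviate together (correlations -0.14 to 0.078 between groups), so the numbers were not taken as pairs.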

Additional observations from a re-analysis of the deposited data

Results flagged for a closer look

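The difference between the KO effect in adult liver and the KO effect in fetal liver passed the interaction test in limma, with a size of at least 2-fold, for 11 genes of sterol synthesis. On the log2 scale it was 1.05 for Hmgcs1, 1.02 for Mvd, 1.36 for Idi1 and 2.28 for Fdps in the first stretch of the pathway. After squalene it was 1.04 for Fdft1, 2.41 for Sqle, 1.57 for Lss, 2.27 for Cyp51, 1.26 for Msmo1, 2.68 for Nsdhl and 1.10 for Dhcr7. Adult and fetal livers also differed in age, fasting and pooling, and the macrophage markers differed between genotypes far more in adult than in fetal liver (summed scaled signal 363 to 371 in KO adult, against 62.5 to 65.7 in WT adult, and 120 to 121 in KO fetal, against 96.8 in WT fetal). Their part in the difference was not tested.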

How the results depend on the processing

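In adult liver, 7 to 10 genes were called higher and 0 lower under the alternatives that kept the 2-fold limit, with 10 under median scaling and under scaling on detected probes, 9 under quantile normalization and in the deposited value table, and 7 to 9 when 1 array was left out. Without the 2-fold limit the adult counts were 21 higher and 4 lower, the fetal counts 5 higher and 4 lower, the interaction counts 19 higher and 4 lower, and 12 genes were lower in KO adult than KO fetal liver. With the 2-fold limit kept, 6 genes were lower in KO adult than KO fetal liver, and 3 with all probes of a gene averaged, where Ggps1 (-0.85), Mvk (-0.88) and Srebf2 (-0.36) fell short. The replicate block for array number left the adult counts at 7 higher and 0 lower and changed no count of the 31 genes. No called value reversed. Of 2904 recomputed gene values, 2851 stayed on their side of the threshold, 23 lost and 30 gained a call, and 118 uncalled values, of 18 genes, changed sign, the largest being Srebf2 at 0.96 with the mean of its probes. Of the 23 lost calls, 1 was in adult liver (Lss with normexp, 0.87) and 5 in the interaction: 3 of Mvd (0.71 to 0.98, by normexp and without WT adult array 2 or WT fetal array 1), 1 of Dhcr7 (0.86, normexp) and 1 of Fdft1 (0.99, without WT adult array 2). Between stages, 11 were in KO liver (5 of Abca1 at 0.66 to 0.96, 2 each of Mvk and Srebf2, 1 each of Ggps1 and Soat1) and 6 in WT liver (3 of Insig1 at 0.70 to 0.97, 2 of Srebf2 at -0.98 and -0.96, 1 of Soat1 at -0.24).

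Scaling moved the median of all genes in the adult comparison from -0.10 to 0.09 (median scaling), and the median of the 31 genes from 0.54 to 0.73. All-gene calls were 722 higher and 368 lower in the main setting, 1047 and 306 with median scaling, and 233 and 118 with normexp; without WT adult array 1, 664 were lower. The interaction gave 881 higher and 536 lower, against 1191 and 331 with detected-probe scaling, and adult over fetal WT liver gave 3975 and 4068, against 2641 and 6089 with median scaling. The causes were not tested. Dim probes (Soat1, Abcg8 in fetal liver, Npc1l1) limit what can be read, and with 1 RNA sample per group no statement about animals of a genotype can be made.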
